A study of Homo sapiens with 12 samples.

Results

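The G1 cyclins, cyclin-dependent kinases (CDKs), their inhibitors and the retinoblastoma gene decide in a dividing cell whether S phase is entered. The genes described are the D cyclins CCND1, CCND2 and CCND3, the kinases CDK4, CDK6 and CDK2, the inhibitors CDKN1B, CDKN1C and CDKN2C, and RB1. These 10 genes were chosen by name, out of 56537 gene names in the table, and the level of each is the sum over its transcripts that matched an Ensembl transcript or shared at least 1 splice site with it. HCT116 is an established line of human colorectal cancer cells. The 4 groups of 3 biological replicates were HCT116 cells at 21% oxygen, which is the 0 h group, and HCT116 cells held for 1, 2 or 24 h in 1% oxygen. All were grown in RPMI-1640 with serum, and exposure to 1% oxygen in a hypoxia workstation began 24 h after plating. The interval from plating to harvest of the 0 h cells is not given in the sources used here. Hypoxia and time in culture therefore cannot be told apart at 24 h. Polyadenylated RNA was sequenced in strand-specific libraries. In such bulk RNA, fewer cells that express a gene and less of its RNA in each cell cannot be told apart. From flow cytometry, the authors report no significant effect of hypoxia on proliferation or apoptosis at the last time point. They also report no appreciable shift in the cell cycle profile under hypoxia. Whether the RNA levels described here went with a change in cell division was not tested.

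As background, D-type cyclins bind CDK4 or CDK6 in response to growth signals, and the complexes phosphorylate RB1. RB1 in its unphosphorylated form holds back the E2F transcription factors, and its phosphorylation, completed by cyclin E with CDK2, releases them to switch on genes of DNA replication. CDKN2C (p18) belongs to the INK4 inhibitors, which act on CDK4 and CDK6, whereas CDKN1B (p27) and CDKN1C (p57) belong to the Cip/Kip inhibitors, which block cyclin E and CDK2. The colorectal epithelium renews continuously, and cyclin D1 is a known target of Wnt signalling in that tissue.

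Levels were deposited as FPKM, fragments per kilobase of transcript scaled to the mapped fragments of the library, so genes can be set side by side per length. The files used here hold no counts of reads, and the mapped reads per library that the study states were not used, so the depth behind each value is unknown and the spread over 3 libraries is the only measure of precision. Of all gene names, 16680 passed a filter of FPKM above 0.5 in at least 3 libraries and were tested with limma on log2(FPKM + 0.5), a scale that understates the change of low genes. Of the genes described, 9 passed this filter, all but CCND2. A gene was called at a change above 2-fold (log2 above 1) with an adjusted p under 0.01. Pearson's r between libraries of a time point, across genes, was 0.965 to 0.988. All 6 genes of a hypoxia list (CA9, VEGFA, NDRG1, BNIP3, PDK1 and EGLN3) were called higher at 24 h, with log2 fold changes of 1.90 to 5.34. Of 7 epithelial markers, EPCAM, CDH1, KRT8, KRT18, KRT19 and CDX2 were detected and VIL1 was at or near 0. CDH1 was called higher at 24 h (log2 fold change 1.76, from a mean of 7.42 to 26.3 FPKM), and KRT19 had a log2 fold change of 0.99, just short of the call. Among 5 markers of other cell types, PTPRC, CD3E and PECAM1 were at or near 0 in every library. COL1A1 and ACTA2 were called higher at 24 h, and the summed level of the list ranged from 2.99 to 4.05 FPKM at 0 h and from 11.5 to 16.3 FPKM at 24 h. The part of these markers in the results at 24 h was not tested.

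After 24 h in 1% oxygen, CCND3 and CDK4 fell, CDKN1B and CDKN1C rose, and the other 5 genes were not called. These are 4 of the 9 genes tested, against 18.3% of all genes tested called in either direction in the same comparison, 8.76% higher and 9.51% lower. The median log2 fold change over the 9 genes was -0.22, and over all genes tested it was -0.05. Over all genes the calls were 1462 higher and 1586 lower with FPKM as deposited, and 209 higher and 3995 lower with each library rescaled to the same sum over all transcripts (TPM). By adjusted p alone, without the 2-fold threshold, CCND1 and CDK2 passed as well, which makes 6 of 9 against 41.5% of all genes. The libraries of 0 h and 24 h did not overlap for 6 of the 9 genes, against 60.4% of all genes tested. At 1 h and 2 h none of the 9 genes was called by limma, against 0.006% and 0.018% of all genes. At an unadjusted p under 0.05, 0 of the 9 stood out at 1 h, against 4.61% of all genes, and 2 at 2 h, which were CDKN1B and CDKN1C, against 15.3% of all genes. All 3 libraries lay above those of 0 h for CDK6 and CDKN1B at 1 h, 2 of 9 genes against 6.36% of all genes. The same held for CDK6, CDKN1B, CDKN1C and RB1 at 2 h, 4 of 9 against 12.2% of all genes. Under TPM over all transcripts, where the medians of all genes were -0.56 at 1 h and -0.94 at 2 h, CDK6 had -0.38 at 1 h, and CDK6 and RB1 had -0.68 and -0.75 at 2 h. Relative to those medians these values were 0.18, 0.26 and 0.19.

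**Figure D1:**
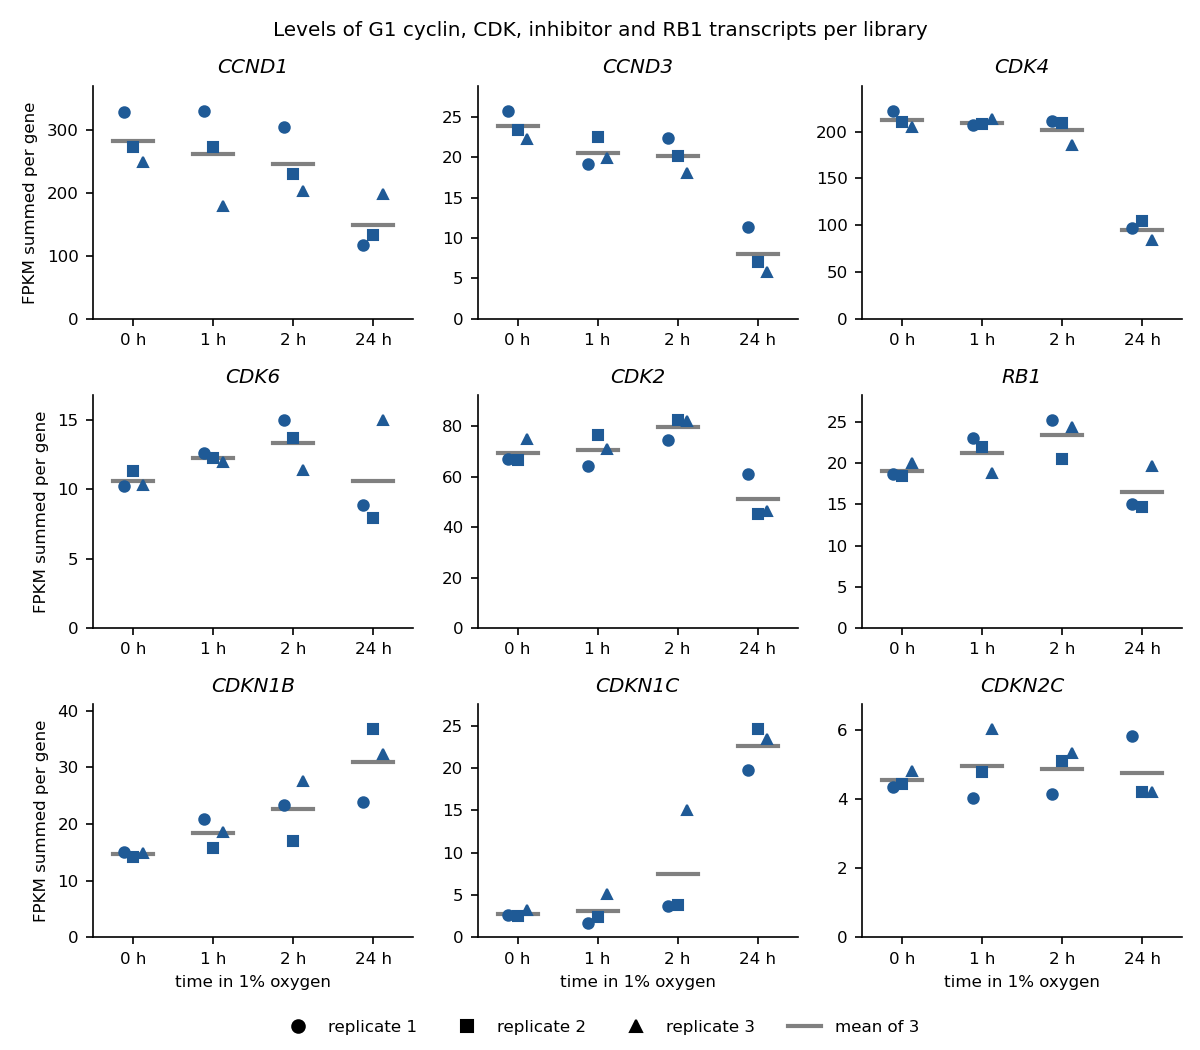
FPKM summed per gene (vertical axes, each starting at 0) in the 12 libraries at 0, 1, 2 and 24 h in 1% oxygen (horizontal axes), with 1 symbol per replicate and a grey line at the mean of 3. CCND3 and CDK4 lie lower in all 3 libraries of 24 h, CDKN1C lies between 19.7 and 24.6 FPKM there, and 1 library of 2 h reaches 15.0 FPKM for CDKN1C. CCND2, listed at 0 in 11 libraries, is not drawn.

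Among the D cyclins, CCND1 made up nearly the whole of the transcript pool. CCND1, cyclin D1 (ENSG00000110092, GRCh37 chr11:69455924-69469242, + strand), measured 328, 273 and 249 FPKM at 0 h and 330, 273 and 180 FPKM at 1 h. At 2 h it measured 304, 230 and 203 FPKM, and at 24 h 116, 132 and 198 FPKM. The 3 libraries of 24 h lay below the 3 of 0 h, but replicate 3 of 24 h overlapped the range of 1 h. The mean was 283 ± 40.5 FPKM (SD, n = 3) at 0 h and 149 ± 43.1 FPKM (SD, n = 3) at 24 h. The log2 fold change of CCND1 at 24 h was -0.95 (standard error 0.24, adjusted p = 0.00497), just short of the 2-fold threshold. It passed that threshold without replicate 3 of 24 h (-1.18, adjusted p = 0.0015) and without replicate 3 of 0 h (-1.04, adjusted p = 0.00809). Its adjusted p rose above 0.01 without replicate 1 (0.0240) or 2 (0.0141) of 0 h. The same held without replicate 1 (0.0239) or 2 (0.0201) of 24 h. Of 20 alternative settings, 15 kept its adjusted p under 0.01.

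CCND3, cyclin D3 (ENSG00000112576, GRCh37 chr6:41902672-42018095, - strand), measured 25.8, 23.4 and 22.3 FPKM at 0 h. It measured 19.2, 22.5 and 19.9 FPKM at 1 h, and 22.4, 20.1 and 18.0 FPKM at 2 h. At 24 h it measured 11.4, 6.98 and 5.79 FPKM. The libraries of 24 h lay below those of all other time points. CCND3 fell by 1.56 on the log2 scale relative to 0 h (standard error 0.19, adjusted p = 2.8e-05), the ratio of the means being 0.337. The 1 h and 2 h values were within the replicate error of 0 h, with log2 fold changes of -0.21 (95% confidence interval -0.62 to 0.20) and -0.24 (-0.65 to 0.17).

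CCND2, cyclin D2 (ENSG00000118971, GRCh37 chr12:4378937-4414519, + strand), was listed at 0 in 11 of the 12 libraries and at 0.00532 FPKM in replicate 1 of 24 h. Genes used by every cell, such as ACTB, TBP and HPRT1, were at 0 in none of the libraries. CCND2 did not pass the filter and was not tested. Its annotated exons share 999 of 7988 bases with another gene on the same strand.

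The summed level of the D cyclins was 157 ± 40.8 FPKM at 24 h, compared with 307 ± 42.2 FPKM at 0 h (SD, n = 3 each). CCND1 held 92.2% ± 0.481 of the 0 h sum and 94.4% ± 3.07 of the 24 h sum (SD, n = 3 each). The share of CCND3 was 8.89%, 5.01% and 2.85% in the 3 libraries of 24 h, and 7.28%, 7.90% and 8.23% in those of 0 h. Replicate 1 of 24 h thus held a larger share of CCND3 than any library of 0 h, and the groups overlapped.

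CDK4, the more abundant of the kinases that bind D cyclins (ENSG00000135446, GRCh37 chr12:58141510-58149796, - strand), measured 222, 210 and 205 FPKM at 0 h. At 1 h it measured 207, 208 and 213 FPKM, and at 2 h 212, 209 and 185 FPKM. At 24 h the values were 97.0, 104 and 83.9 FPKM. All 3 libraries of 24 h lay below the lowest of the 9 earlier libraries. CDK4 fell by 1.16 on the log2 scale (standard error 0.094, adjusted p = 1.6e-06), with a mean of 212 ± 8.76 FPKM at 0 h and 94.97 ± 10.3 FPKM at 24 h (SD, n = 3 each). The changes at 1 h (-0.02, 95% confidence interval -0.22 to 0.19) and 2 h (-0.07, -0.28 to 0.13) were within replicate error. Of the 3094 annotated exon bases of CDK4, 1369 are also exons of TSPAN31 on the opposite strand. The libraries are strand-specific, and per the methods Cufflinks was run with the strand specified when the transcript models were made.

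CDK6, the other partner of the D cyclins (ENSG00000105810, GRCh37 chr7:92234235-92465887, - strand), measured 10.2, 11.3 and 10.3 FPKM at 0 h and 12.6, 12.2 and 11.98 FPKM at 1 h. It measured 15.0, 13.7 and 11.4 FPKM at 2 h and 8.84, 7.95 and 15.0 FPKM at 24 h. Replicate 3 of 24 h stood above every library of 0 h and the other two below. The log2 fold change at 24 h was -0.05 (95% confidence interval -0.46 to 0.36, adjusted p = 0.835), and without replicate 3 of 24 h it was -0.32 (adjusted p = 0.0501). CDK6 made up 4.76% ± 0.353 of the summed CDK4 and CDK6 at 0 h and 5.54% ± 0.208 at 1 h. It made up 6.19% ± 0.399 at 2 h, and at 24 h 10.2% ± 4.34 (SD, n = 3 at each time). In every library of 1 h, 2 h and 24 h this share was above those of 0 h.

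CDK2, the kinase partner of cyclin E (ENSG00000123374, GRCh37 chr12:56360565-56366573, + strand), measured 67.0, 66.7 and 74.9 FPKM at 0 h and 64.2, 76.7 and 70.9 FPKM at 1 h. It measured 74.5, 82.5 and 82.0 FPKM at 2 h and 61.3, 45.4 and 46.5 FPKM at 24 h. The libraries of 24 h lay below all others, although replicate 1 of 24 h came close to the lowest library of 1 h. The log2 fold change at 24 h was -0.45 (standard error 0.12, adjusted p = 0.00647), below the 2-fold threshold. In 10 of 20 alternative settings the adjusted p stayed under 0.01, and it reached 0.0303 without replicate 2 of 24 h.

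RB1, the substrate of these kinases (ENSG00000139687, GRCh37 chr13:48877880-49173572, + strand), measured 18.6, 18.5 and 20.1 FPKM at 0 h and 23.1, 22.0 and 18.8 FPKM at 1 h. It measured 25.2, 20.5 and 24.4 FPKM at 2 h and 15.0, 14.6 and 19.7 FPKM at 24 h. The groups of 0 h and 24 h overlapped. The log2 fold change was 0.28 at 2 h (95% confidence interval -0.00 to 0.57, adjusted p = 0.331) and -0.22 at 24 h (-0.50 to 0.07, adjusted p = 0.179).

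The Cip/Kip inhibitors moved in the other direction. CDKN1B, p27 (ENSG00000111276, GRCh37 chr12:12838432-12875303, + strand), measured 15.1, 14.2 and 14.8 FPKM at 0 h and 20.8, 15.7 and 18.6 FPKM at 1 h. It measured 23.3, 16.9 and 27.5 FPKM at 2 h and 23.9, 36.7 and 32.4 FPKM at 24 h. The 3 libraries of each later time point lay above those of 0 h, while 2 h and 24 h overlapped. CDKN1B rose 2.11-fold by the ratio of the means at 24 h, and its log2 fold change was 1.03 (standard error 0.19, adjusted p = 0.000544). This value sits at the threshold, and the call was lost without replicate 2 of 24 h (0.90, adjusted p = 0.00325) or replicate 3 of 24 h (0.98, adjusted p = 0.00252). Under TPM over all transcripts, the log2 fold change of CDKN1B was 0.17 (adjusted p = 0.752), where the median of all genes was -0.78, and relative to that median it was 0.95. Under TPM over transcripts of at least 300 bases it was 0.94 (adjusted p = 0.00102). At 1 h and 2 h its log2 fold changes were 0.30 (95% confidence interval -0.10 to 0.71, adjusted p = 0.996) and 0.57 (0.17 to 0.98, adjusted p = 0.201). Under TPM over all transcripts those at 1 h and 2 h were -0.30 and -0.47, and relative to the medians of all genes they were 0.26 and 0.47.

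CDKN1C, p57 (ENSG00000129757, GRCh37 chr11:2904443-2907005, - strand), an imprinted gene in humans, measured 2.58, 2.46 and 3.26 FPKM at 0 h and 1.70, 2.32 and 5.14 FPKM at 1 h. At 2 h it measured 3.62, 3.80 and 15.0 FPKM, and at 24 h 19.7, 24.6 and 23.4 FPKM. Every library of 24 h lay above every earlier one, and the values of 2 h lay above those of 0 h only narrowly except in replicate 3. CDKN1C rose from 2.77 ± 0.430 to 22.6 ± 2.53 FPKM (SD, n = 3 each), 8.15-fold by the ratio of the means. The log2 fold change at 24 h was 2.82 (standard error 0.45, adjusted p = 0.00021), and over 20 alternative settings it ranged from 1.85 to 3.05 with an adjusted p of at most 0.00152. At 2 h it was 1.00 (95% confidence interval 0.03 to 1.98, adjusted p = 0.316), and without replicate 3 of 2 h it was 0.37 (adjusted p = 0.703). Of the 6 genes of the hypoxia list, 5 were highest among the libraries of 2 h in the same replicate 3. NDRG1 measured 52.0 FPKM there against 24.0 and 31.1, and VEGFA 36.1 FPKM against 28.5 and 27.5, whereas BNIP3 was nearly level (30.6 against 27.7 and 30.4) and CA9 was higher in replicate 2. NDRG1 was also highest in replicate 3 at 0 h (30.5 against 18.1 and 23.6 FPKM). The part of these levels in the value of CDKN1C in that library was not tested.

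CDKN2C, p18 (ENSG00000123080, GRCh37 chr1:51426417-51440306, + strand), measured 4.35, 4.42 and 4.82 FPKM at 0 h and 4.03, 4.78 and 6.005 FPKM at 1 h. It measured 4.14, 5.08 and 5.32 FPKM at 2 h and 5.81, 4.21 and 4.19 FPKM at 24 h. The groups overlapped at every time. The log2 fold change at 24 h was 0.05 (95% confidence interval -0.32 to 0.41, adjusted p = 0.837), so that a 2-fold change lies outside the interval.

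**Figure D2:**
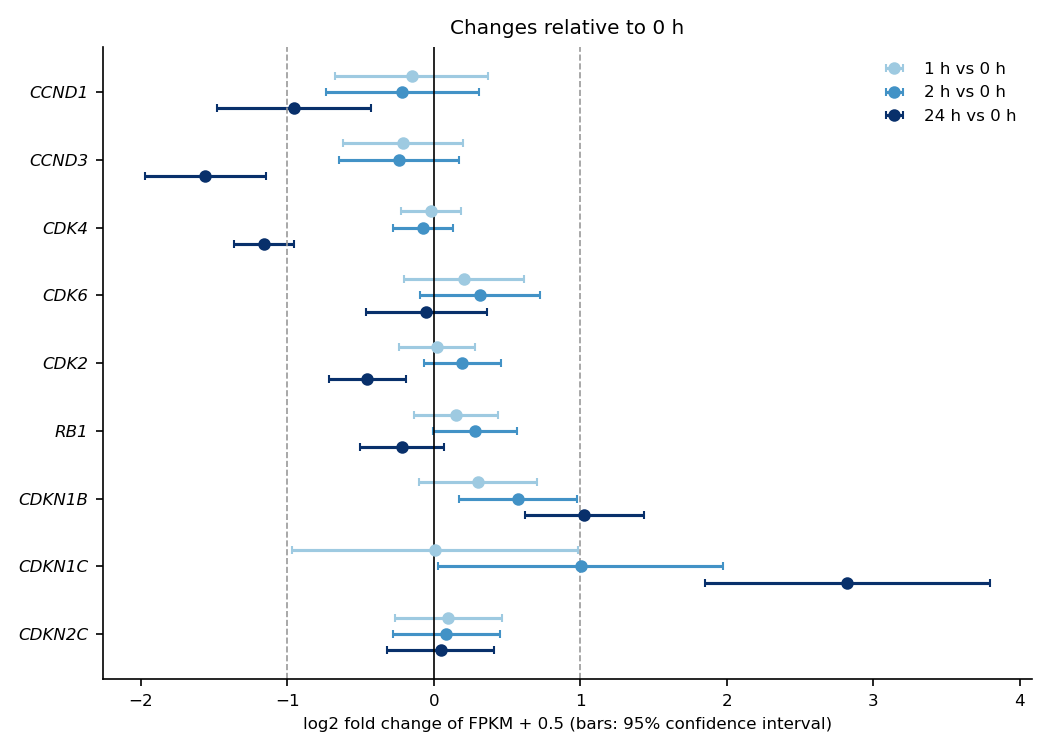
Log2 fold change of FPKM + 0.5 relative to 0 h (horizontal axis) for 9 genes (vertical axis) at 1, 2 and 24 h, with 95% confidence intervals as bars and dashed lines at 2-fold. At 24 h CCND3 and CDK4 lie below -1 and CDKN1B and CDKN1C above 1, while the intervals of CDK6, RB1 and CDKN2C include 0.

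The genes also differed in the order of their levels between 0 h and 24 h. At 0 h the mean levels ran from CCND1 (283 FPKM) through CDK4 (212), CDK2 (69.6), CCND3 (23.8), RB1 (19.1), CDKN1B (14.7), CDK6 (10.6) and CDKN2C (4.53) to CDKN1C (2.77). No 2 neighbours in this order overlapped between their libraries. At 24 h CDKN1B (31.0 FPKM) and CDKN1C (22.6) stood directly after CCND1 (149), CDK4 (94.97) and CDK2 (51.05). RB1 (16.5 FPKM), CDK6 (10.6), CCND3 (8.04) and CDKN2C (4.74) followed. CDKN1B and CDKN1C overlapped with each other at 24 h, and so did the neighbours RB1 and CDK6, CDK6 and CCND3, and CCND3 and CDKN2C.

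CDKN1B and CDKN1C together measured 17.5 ± 0.720 FPKM at 0 h and 53.6 ± 9.08 FPKM at 24 h (SD, n = 3 each). At 0 h their sum was 26.4%, 25.03% and 24.1% of the level of CDK2 in the 3 libraries. At 24 h it was 71.1%, 135% and 120%, so that in replicates 2 and 3 the summed FPKM of these inhibitors exceeded that of CDK2. CDKN1C held 15.8% ± 1.93 of the 0 h sum and 42.4% ± 2.62 of the 24 h sum (SD, n = 3 each). Levels of transcripts say nothing of the amounts of protein.

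**Figure D3:**
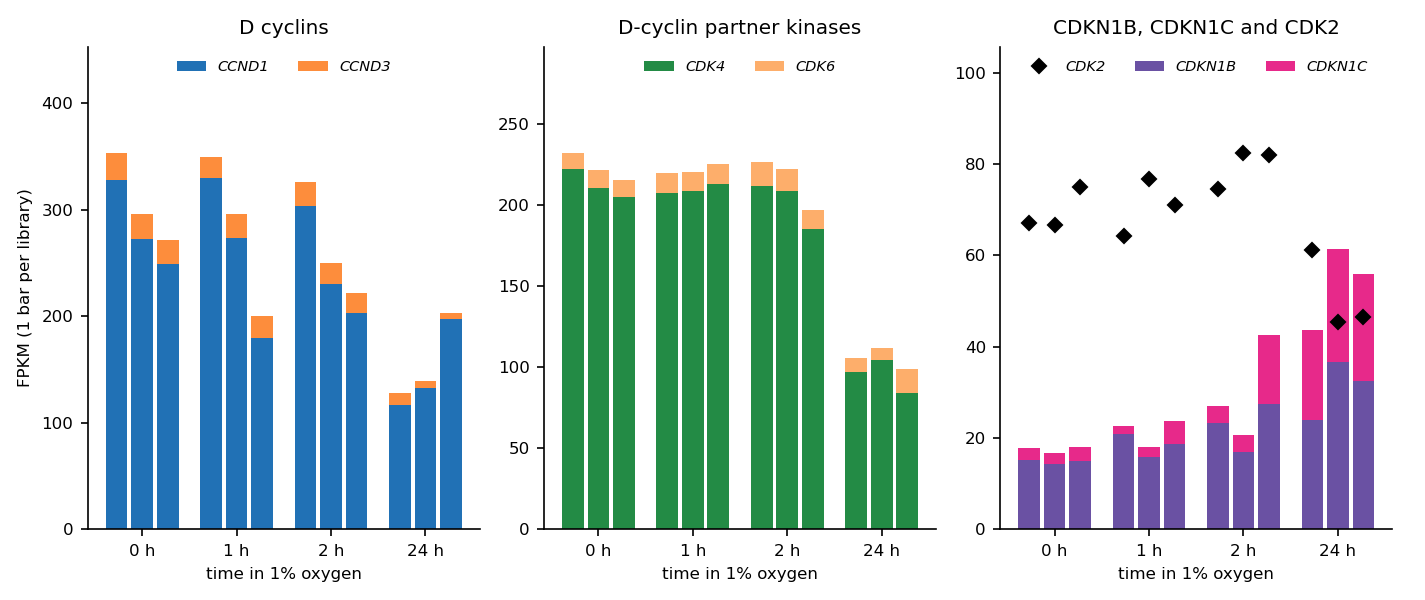
FPKM (vertical axes, from 0) with 1 bar per library, in groups of 3 by time in 1% oxygen (horizontal axes), stacked by gene for the D cyclins, for CDK4 with CDK6, and for CDKN1B with CDKN1C, where black diamonds give CDK2. The CDKN1B and CDKN1C bars lie below CDK2 at 0, 1 and 2 h and above it in 2 of the 3 libraries at 24 h.

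Between 2 h and 24 h in 1% oxygen, both under hypoxia, 3 of the 9 genes were called, against 14.7% of all genes tested, 7.44% higher and 7.28% lower. CCND3 (-1.32, standard error 0.19, adjusted p = 0.000114) and CDK4 (-1.09, standard error 0.094, adjusted p = 3.2e-06) fell. CDKN1C rose (1.82, standard error 0.45, adjusted p = 0.00484), a call that was lost on leaving out any single library of 2 h or 24 h other than replicate 3 of 2 h, with an adjusted p of up to 0.025. CDKN1B was not called in this comparison (0.45, 95% confidence interval 0.05 to 0.86, adjusted p = 0.0582). At an adjusted p under 0.01 with no minimum fold, 5 of the 9 passed, against 36.6% of all genes tested. RB1, 1 of these 5, passed in 11 of 20 alternative settings. These values share the libraries of 24 h with the comparison against 0 h.

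The genes whose pattern over the 12 libraries was most like that of a called gene were named by Pearson's r of log2(FPKM + 0.5), as a description. All of these correlations share the step between 24 h and the earlier times. For CDKN1C they were ADM (r = 0.984), which encodes the hypoxia-inducible peptide adrenomedullin, and ELF3 (0.979), an epithelial transcription factor. For CDKN1B they were CHMP1B (0.969) and ESCO1 (0.963). For CCND3 they were EXOSC4 (0.994) and SNRPB (0.993), and for CDK4 they were ARPC4 (0.995) and MRP63 (0.995).

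The other genes of the G1/S control, 36 in 6 lists, were all tested. At 24 h 5 of them rose and 14 fell, and 17 were not called, against 8.76% of all genes tested called higher and 9.51% lower, with a median log2 fold change of -0.70 against -0.05 over all genes. Under TPM over all transcripts 1 of the 36 rose and 20 fell. Of the 19 genes called with FPKM as deposited, 15 were called in the same direction, and of those that rose CDKN2B alone was (log2 fold change 1.17). CDKN1A (0.63), RBL2 (0.28), CDKN2D (0.23) and TFDP2 (0.19) were not called under it, where the median of all genes was -0.78. Under TPM over transcripts of at least 300 bases CDKN1A (1.42, adjusted p = 3.02e-05) and RBL2 (1.06, adjusted p = 0.00149) were called as well, and CDKN2D (0.995) and TFDP2 (0.950) were just short of 2-fold. Limma called none of the 36 at 1 h or 2 h, and at an unadjusted p under 0.05 there were 2 and 6, against 4.61% and 15.3% of all genes. Because the lists were chosen with earlier results of these data known, their counts are descriptive. Without replicate 1 of 0 h 3 rose and 13 fell, since CDKN2D (0.92), TFDP2 (0.95) and TFDP1 (-0.94) were then short of 2-fold. Without replicate 3 of 24 h 4 rose and 12 fell, with RBL2 (0.92), E2F2 (-0.94) and TFDP1 (-0.90) short of it. E2F1 was lost without replicate 2 of 24 h (-0.97), CDKN2D without replicate 1 of 24 h (0.97) and CCNE1 with transcripts of class code = alone (-0.91). TFDP1 was lost with 1 FPKM added in place of 0.5 (-0.997) and with median-of-ratios scaling (-0.937). TFDP2 was lost with only transcripts above FPKM 0.5 in at least 3 libraries (0.844) and with sums per Cufflinks locus (0.823). RBL1 had no value with sums per Cufflinks locus.

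Of 4 other CDK inhibitors, 3 rose at 24 h. CDKN1A, the p53-inducible Cip/Kip inhibitor p21, measured 54.0, 64.5 and 67.0 FPKM at 0 h and 185, 157 and 188 FPKM at 24 h, a log2 fold change of 1.51 (SE 0.18, adjusted p = 2.4e-05). CDKN2B, the INK4 inhibitor p15, had a log2 fold change of 2.11, from levels of 0.897 to 1.11 FPKM at 0 h to 4.56 to 8.999 FPKM at 24 h. CDKN2D, the INK4 inhibitor p19, had a log2 fold change of 1.07. CDKN2A was not called (-0.35, adjusted p = 0.0535). Of the Cip/Kip and INK4 genes measured, CDKN1A had the highest level at both times.

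All 3 genes of the cyclin E list fell. CCNE2 showed a log2 fold change of -2.49 (standard error 0.13, adjusted p = 1.2e-07) and CCNE1 of -1.26. CDC25A, the phosphatase that activates CDK2, had one of -2.25, from 19.0 to 22.0 FPKM at 0 h to 3.17 to 4.94 FPKM at 24 h. Of the 9 genes of the pocket protein and E2F list, 4 fell and 2 rose. RBL1, the pocket protein p107, fell by 1.43 on the log2 scale, whereas RBL2, the pocket protein p130 of resting cells, rose with a log2 fold change of 1.13. The activator E2F genes E2F1 and E2F2 had log2 fold changes of -1.14 and -1.18. Their dimerisation partners differed in direction, TFDP1 with -1.002 and TFDP2 with 1.04. TFDP1 lost its call in 4 and TFDP2 in 5 of 20 alternative settings.

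Of 9 E2F target genes of DNA replication, 6 fell and none rose, with a median log2 fold change of -1.31. MCM2, MCM3 and MCM5, subunits of the replicative helicase, had log2 fold changes of -1.57, -1.31 and -1.63. CDC6, which loads that helicase, had -1.55, and PCNA, the sliding clamp, had -1.46. RRM2, a subunit of ribonucleotide reductase, had -1.12. TK1, CDT1 and CCNA2 were not called. Of 8 genes of cyclin and inhibitor turnover, SKP2, the F-box protein that targets p27 for degradation, was the one called, with a log2 fold change of -1.34 (23.6 to 28.8 FPKM at 0 h and 9.45 to 10.7 FPKM at 24 h). No gene of the CDK-activating kinase (CDK7, CCNH and MNAT1) was called.

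**Figure D4:**
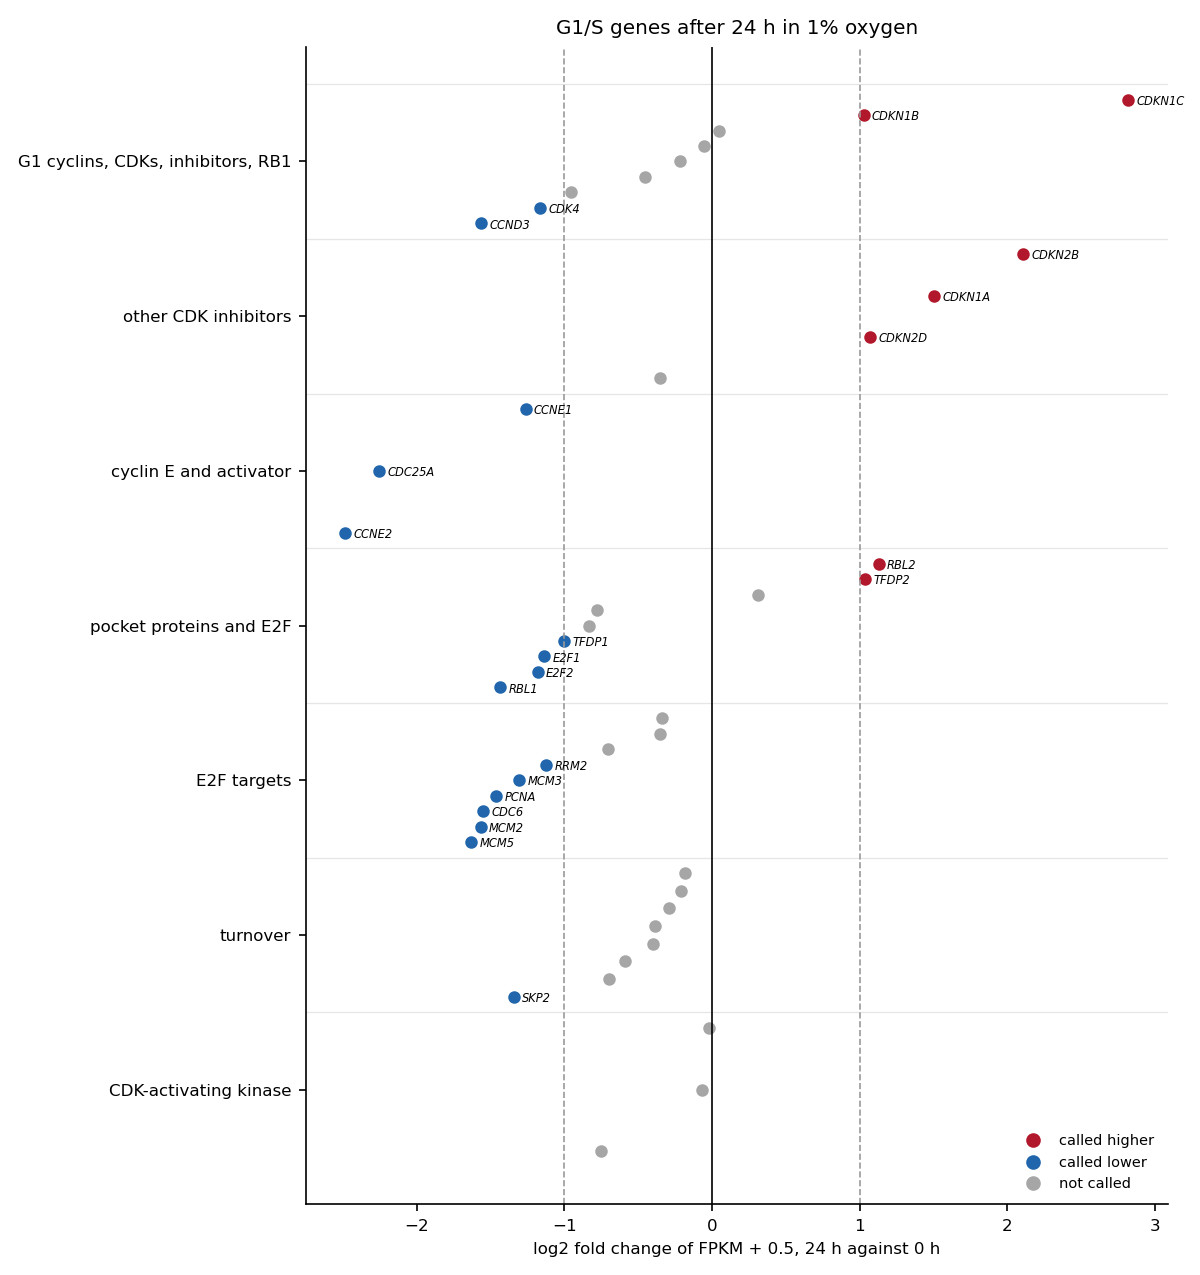
Log2 fold change of FPKM + 0.5 at 24 h against 0 h (horizontal axis, dashed lines at 2-fold), with 1 point per tested gene, grouped by list (vertical axis). Red points were called higher, blue lower and grey not called. The E2F target, cyclin E, turnover and CDK-activating kinase lists lie wholly below 0, and 3 of the 4 other CDK inhibitors lie above 1. The highest value of the CDK-activating kinase list is -0.02.

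The transcripts behind each gene were then examined. The 10 genes had 98 transcripts in the table, 87 matching an Ensembl transcript and 11 sharing a splice site with one, and 43 passed the filter. Transcript usage was taken as the log2 ratio of a transcript to the other transcripts of its gene, with 0.5 FPKM added to both. It was tested with limma over 57084 transcripts, with an adjusted p under 0.05. At 24 h, 4 of 42 tested transcripts of these genes were called, against 10.7% of all transcripts tested. At 1 h and 2 h limma called none of the 42, against 0.0035% and 0.00175% of all, and at an unadjusted p under 0.05 there were 4 and 3, against 5.23% and 7.59% of all transcripts. RB1 had a single transcript past the filter and no usage test.

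For 7 of the 9 expressed genes 1 transcript held most of the level at 0 h. It was ENST00000227507 for CCND1 (98.5%), ENST00000372991 for CCND3 (76.6%), ENST00000265734 for CDK6 (85.5%), ENST00000266970 for CDK2 (73.8%), ENST00000228872 for CDKN1B (97.0%), ENST00000396148 for CDKN2C (84.3%) and ENST00000267163 for RB1 (97.8%). All of these are annotated as protein coding. CDK4 divided its level among several transcripts, of which ENST00000312990 held 31.6% ± 2.16 of the 0 h level and 29.1% ± 0.759 of the 24 h level (SD, n = 3 each). Of the other CDK4 transcripts, ENST00000551800 held 9.65% ± 0.330 and 14.9% ± 3.39 (usage adjusted p = 0.105), and the mean shares of ENST00000257904, ENST00000547281 and ENST00000540325 lay between 12.7% and 18.8% at 0 h. None of the CDK4 transcripts was called.

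One CDK2 transcript passed the usage test. ENST00000440311, annotated as protein coding, lacks bases of the main transcript ENST00000266970. Among them are exon 2 (chr12:56361641-56361718, 78 bases) and exon 5 (chr12:56363259-56363360, 102 bases, a multiple of 3). The sequences across the splice junctions after exon 4 are shown because they tell both transcripts apart. They were read on the + strand of GRCh37, 5′ to 3′, with the exon before the junction in lower case and the exon after it in capitals.
CDK2 exon 4 to exon 5, main transcript: acttacacccatgagGTGGTGACCCTGTGG
CDK2 exon 4 to exon 6, ENST00000440311: acttacacccatgagGTGACTCGCCGGGCC
Both share the printed bases that end exon 4 (position 56362732) and the 3 bases after them, and differ from base 4 after the junction. ENST00000440311 measured 2.25, 3.07 and 4.02 FPKM at 0 h and 0.162, 0.985 and 0.496 FPKM at 24 h. As a share of CDK2 it was 3.36%, 4.61% and 5.36% at 0 h and 0.265%, 2.17% and 1.07% at 24 h, and the groups did not overlap. Its usage changed by -1.43 on the log2 scale (standard error 0.40, adjusted p = 0.0418). The call was lost on leaving out any single library of 0 h or 24 h other than replicate 2 of 24 h, with an adjusted p of up to 0.117. It was also lost with the replicate number as a block (adjusted p = 0.0579) and with 0.1 FPKM added in place of 0.5 (adjusted p = 0.0589). A two-sided exact permutation test on the shares gave p = 0.1, the smallest that 3 libraries against 3 allow. The main transcript held 73.8% ± 0.504 of the 0 h level of CDK2 and 72.5% ± 6.98 of its 24 h level (SD, n = 3 each). ENST00000554545, a form of 445 bases annotated without a defined coding sequence, was the second by share, with 16.9% ± 1.66 (SD, n = 3) of the 0 h level and 19.6% ± 7.64 (SD, n = 3) of the 24 h level. These groups overlapped, and its usage was not called (adjusted p = 0.821).

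CDKN1C had 3 transcripts past the usage test, all of them at low level. Its main transcript ENST00000440480 held 41.2% ± 6.95 at 0 h and 45.2% ± 5.55 at 24 h, and ENST00000380725 held 21.6% ± 9.80 and 25.6% ± 4.62 (SD, n = 3 each), neither of which was called. ENST00000313407 held 0.0515%, 0% and 13.3% at 0 h and 22.0%, 9.79% and 9.78% at 24 h, groups that overlapped, and was not called (adjusted p = 0.844). A shorter form of 971 bases, which shares splice sites with ENST00000440480, measured 1.18, 0.236 and 0.654 FPKM at 0 h. It was listed at 0 in all 3 libraries of 1 h, and measured 0.160, 0.209 and 1.00 FPKM at 2 h and 0, 1.28 and 0.506 FPKM at 24 h. It held 25.2% ± 18.7 of the 0 h level of CDKN1C, 5.52% ± 1.118 of the 2 h level and 2.45% ± 2.61 of the 24 h level (SD, n = 3 each), so that its share was low from 1 h on. Its usage changed by -3.38 on the log2 scale (standard error 0.53, adjusted p = 0.00392). ENST00000471157, annotated as a retained intron and without splicing of intron 2 (chr11:2905365-2905899), measured 0.069 to 0.213 FPKM at 0 h and 0.411 to 1.01 FPKM at 24 h. Its share was 5.58% ± 3.00 and 3.26% ± 1.72 (SD, n = 3 each), and the groups overlapped (p = 0.3 by the same exact permutation test). Its usage change was -1.98 (adjusted p = 0.0166), and with 0.1 FPKM added in place of 0.5 the change was -1.36 (adjusted p = 0.177). ENST00000430149 was listed at 0 in all 3 libraries of 0 h and held 3.75%, 1.47% and 1.23% at 24 h. Its usage value depended on the amount of FPKM added and had the opposite sign to these shares, and it is not given as a change.

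CDKN2C, whose total level was not called, had 2 transcripts with different start sites, neither past the usage test. ENST00000396148 begins upstream of ENST00000371761 (chr1:51434378-51440306 and chr1:51435917-51440306). The share of ENST00000371761 was 17.1%, 8.70% and 12.5% at 0 h and 0%, 2.04% and 4.45% at 24 h. The groups did not overlap, but its usage change of -1.06 had an adjusted p of 0.0601, short of the threshold, and that of ENST00000396148 was 0.84 (adjusted p = 0.0799). With 0.1 FPKM added in place of 0.5, the adjusted p of ENST00000371761 was 0.0403.

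**Figure D5:**
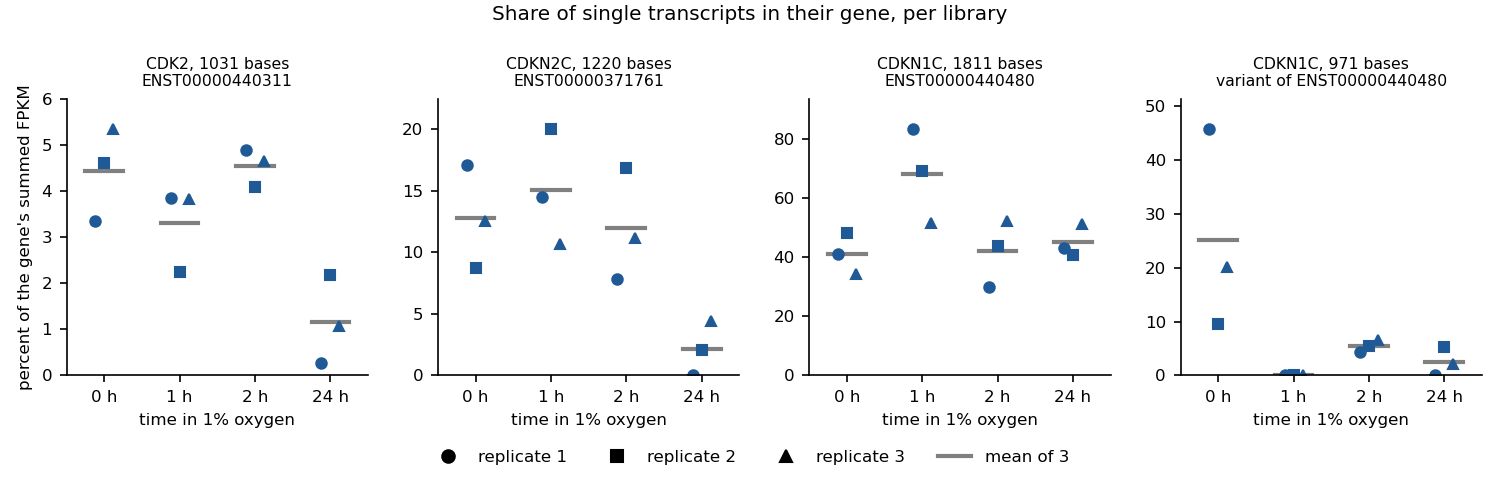
Percent of the gene's summed FPKM held by 1 transcript (vertical axes, from 0) per library at 0, 1, 2 and 24 h in 1% oxygen (horizontal axes), with 1 symbol per replicate and a grey line at the mean. The CDK2 transcript ENST00000440311 and the CDKN2C transcript ENST00000371761 lie lower in all 3 libraries of 24 h, whereas the main CDKN1C transcript overlaps between 0 h and 24 h. The 971-base form of CDKN1C varies from 9.59% to 45.8% at 0 h.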

How the data were processed

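The authors sequenced 12 strand-specific libraries of polyadenylated RNA from HCT116 cells, 3 per time point, and deposited transcript FPKM estimated by Cufflinks on models merged with Ensembl 74 (hg19, GRCh37). Per the labels, reads were processed with CASAVA 1.8.2. The deposited FPKM were used without rescaling. The FPKM of transcripts of class code = (match) or j (shared splice site) was summed per gene name, which merges loci of repeated names such as Y_RNA. Tests used limma 3.58.1 in R 4.3.3 (lmFit, eBayes with trend, all 12 libraries, Benjamini-Hochberg over all features), two-sided, with a pseudocount of 0.5. The fits were tested on simulated data with independent normal errors, where usage changes were planted only among transcripts of below-median variance. Tables and figures used Python 3.11.15, pandas 2.3.3, scipy 1.17.1 and matplotlib 3.10.9. Transcript types and coordinates came from GENCODE lifted to GRCh37, and sequences from its transcripts.

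All 10 genes were named, with transcripts that led their gene, held at least 10% of it or passed the usage test, the called genes of the lists (at most 20) and the 2 most similar genes. The genes and lists were chosen with earlier results of these data known. A gene of the lists, left out of their counts and medians, and a splice junction sequence are not reported here. Replicates are biological per the design text, and p-values measure the spread between them. Replicate numbers were not treated as pairs: deviations of same-numbered libraries had a mean correlation of 0.154 (-0.083 to 0.428 over 18 pairs, 10 above 0.1). Alternatives varied the pseudocount, filter, class codes, transcript length, scaling, locus sums, libraries fitted, trend, block and each replicate left out. Columns of other samples numbered 0.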

Additional observations from a re-analysis of the deposited data

Results flagged for a closer look

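The change relative to 0 h differed between 2 h and 24 h for 5 of the 9 genes tested, by the limma test of 24 h against 2 h, which is the test of that difference. As 24 h minus 2 h on the log2 scale, the difference was -1.32 for CCND3 (adjusted p = 0.000114), -1.09 for CDK4 (adjusted p = 3.2e-06) and 1.82 for CDKN1C (adjusted p = 0.00484). It was -0.65 for CDK2 (adjusted p = 0.000726) and -0.50 for RB1 (adjusted p = 0.0071), both below 2-fold. For RB1 the adjusted p rose above 0.01 in 9 of 20 alternatives, among them leaving out replicate 1 (0.0323) or 3 (0.0240) of 2 h or replicate 1 (0.0258) or 2 (0.0325) of 24 h, and it reached 0.778 with TPM over all transcripts. CDKN1C passed in 13 of 20 alternatives, and CCND3, CDK4 and CDK2 in 19 each. By adjusted p alone, 36.6% of all genes tested passed in this comparison. RB1 was higher at 2 h than at 0 h and lower at 24 h (means of 19.1, 23.4 and 16.5 FPKM), with neither comparison against 0 h past the threshold.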

How the results depend on the processing

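All 4 gene-level calls at 24 h were made with 3 libraries against 3 and no counts, so precision rests on the replicate spread alone. CCND3, CDK4 and CDKN1C remained called at 24 h against 0 h in all 20 alternatives, and CDKN1B was called in 16 of them. Of 720 member values under alternatives, 703 stayed on their side of the threshold, 13 fell below it and 4 passed it (CCND1 at 24 h in each). The sign differed in 33 of the 720, all of them values that were not called. Of the summed FPKM of a library, 57.0% to 87.6% lay on transcripts under 300 bases, and TPM over all transcripts moved the median log2 fold change of all genes at 24 h from -0.05 to -0.78. TPM over transcripts of at least 300 bases moved it to -0.13.

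At 1 h the 1 called gene became 0 with no filter, with transcripts of at least 300 bases, with TPM over those, with the 6 libraries alone and with the replicate block, 28 with TPM over all transcripts, and 0 to 1 without single replicates. At 2 h the 3 called genes became 6 with a pseudocount of 0.1, 0 with no filter, 5 with filtered transcripts, 7 with transcripts of at least 300 bases, 540 with TPM over all transcripts, 5 with TPM over those of at least 300 bases, 0 with the 6 libraries alone, 1 without trend, and 0 to 6 without single replicates. At 24 h against 2 h, TPM over all transcripts gave 630 genes in place of 2456 and 1 member in place of 3. The cause of these changes was not tested.

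Transcript usage at 1 h gave 2 transcripts, 1 with a pseudocount of 1, 0 with no filter, 0 with the replicate block and 0 to 2 without single replicates. At 2 h it gave 1 transcript, 3 with a pseudocount of 0.1, 2 with no filter, 0 with the replicate block and 0 to 3 without single replicates. At 24 h it gave 6109 transcripts, 4019 with a pseudocount of 0.1, 38978 with no filter and 3287 to 4972 without single replicates. The 4 member transcripts became 2 with a pseudocount of 0.1, 7 with a pseudocount of 1, 25 with no filter, 2 with a minimum FPKM of 1 and 2 to 4 without single replicates.

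With the replicate number as a block, 3106 genes were called at 24 h against 0 h in place of 3048, 4 members again, and 5722 transcripts by usage. Of 36 comparisons, a library deviated most like its own number at another time in 26, and between 0 h and 24 h the mean correlation was 0.082. The block left every member call at gene level on its side of the threshold and left the usage of the CDK2 transcript ENST00000440311 short of it (adjusted p = 0.0579).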
